A study of Mus musculus with 4 samples.

Results

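Myc and nucleolar factors of ribosome assembly were followed, 35 genes in all of the 38282 listed in the deposited tables. They were taken by name, for their known function but with earlier results of these data known, and all 35 were matched to a row. All 35 also passed the filter for testing, a mean of at least 1 FPKM over the 4 libraries. FPKM counts fragments per kilobase of transcript, scaled by how many were mapped, so levels of different genes can be compared per length. Cells were spleen-derived naive CD4+ T cells of C57BL/6 mice. The Th0 group was kept in the Th0 condition, the usual name for activation without cytokines that steer a T helper lineage, and the Th0+Dopa group in the same condition with dopamine added. Each group holds 2 libraries, numbered 2 and 3, from cells taken at day 4. The sources used here do not give the dose and timing of dopamine, the age of the mice or whether animals were pooled.

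Ribosomes are assembled in the nucleolus, where RNA polymerase I copies the ribosomal DNA and small nucleolar RNA-protein particles (snoRNPs) modify and help cut the transcript. Assembly factors then build the small and the large subunit around it. T cells leaving quiescence enlarge their nucleoli and make many ribosomes before they divide, and the transcription factor MYC, induced by the antigen receptor, is known to bind the promoters of many of these genes.

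By limma with Benjamini-Hochberg adjustment over 11423 tested genes, 2 of the 35 members rose, Nop10 and Polr1c, and 0 fell. That is 5.71% higher, against 6.28% of all tested genes called higher and 4.39% called lower, so the share called higher is near that of all tested genes. At an unadjusted limma p under 0.05 there were 12 members higher (34.3%, against 15.7% of all tested genes) and 2 lower (5.71%, against 12.2%). The median difference of the members was 0.10 on the log2(FPKM + 1) scale, beside 0.03 over all tested genes. Every difference here is Th0+Dopa minus Th0, the mean of the differences within the 2 tables, with its standard error (SE) after ±. Without a test, 21 members were higher with dopamine in both tables (60.0%, against 37.6% of all tested genes) and 9 were lower in both (25.7%, against 32.3%). In 19 members both dopamine libraries lay above both Th0 libraries (54.3%, against 31.4%), and in 5 both lay below (14.3%, against 25.6%). The members' median Th0 level was 77.8 FPKM, against 12.0 over all tested genes, and these shares were not matched for level.

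These shares move with the scaling. FPKM summed to 687066 and 715110 in Th0 and to 880583 and 794873 with dopamine. With libraries scaled to a common sum, the median of all tested genes was -0.20 and that of the members -0.15. Relative to all genes the members stood at 0.08 as deposited and at 0.05 on the common sum. On the common sum 12 members lay above 0 in place of 25. Then 0 members were called higher and 3 lower, Dkc1, Npm1 and Pes1, against 3.29% and 9.31% of all tested genes. With small RNA genes left out before that scaling, 2 rose and 3 fell, against 5.57% and 11%, and these were Nop10 and Polr1c, and again Dkc1, Npm1 and Pes1. With only protein-coding genes tested, 8 were called higher (Nop56, Nop2, Nop10, Nhp2, Polr1c, Polr1e, Mrto4 and Ppan) and 2 lower (Dkc1 and Pes1), against 10.6% and 8.93%.

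Markers of the labelled cell type were present, beside those of other cells. All 19 T cell identity genes passed the filter, with summed levels of 2891 to 3153 FPKM, and Cd8a and Cd8b1 together had 3.95 to 6.39 FPKM. By limma, 4 of the 19 rose (21.05%, against 6.28% of all tested genes) and 1 fell (5.26%, against 4.39%). Those that rose were Cd5 (0.96), Cd6 (0.84), Cd3d (0.48) and Zap70 (0.46), and Trac fell (-0.70). Markers of other cells moved with the treatment as well. The 15 macrophage and dendritic cell markers summed to 261 and 331 FPKM in Th0 and to 101 and 72.6 with dopamine, and 9 of the 11 tested fell. The 12 granulocyte and mast cell markers summed to 448 and 595 against 50.1 and 46.9 FPKM, and all 8 tested fell. The highest of them in Th0, Mcpt8, had 142 and 187 FPKM there, beside 122 and 123 FPKM for Cd4. The 9 B cell markers summed to 134 and 143 against 63.6 and 71.2 FPKM, and 2 of 5 tested fell. No marker of these lists was at 0 in every library; 2 macrophage and dendritic cell markers and 2 granulocyte and mast cell markers were at 0 in each dopamine library. The part of these cells in the results below was not tested. In bulk RNA, fewer cells of a type and less RNA per cell cannot be told apart. The low values of single-transcript genes fell near whole multiples of 1 fragment, worth 0.155 to 0.204 FPKM on a 1 kb transcript (84.7% to 85.5% within 0.15 fragment). That worth was picked in each library to give the highest such share. The 30% to be had by chance holds for a worth fixed beforehand, so it is not a matched comparison. By this estimate Bysl, the member lowest in FPKM, rested on 198 to 366 fragments a library. Fragments were estimated only for members with a single transcript, and shorter members may rest on fewer.

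Levels spanned a wide range among the members, from 10.5 FPKM for Bysl to 2939 FPKM for Npm1, each in the library numbered 3 of the Th0 group. By their Th0 mean, 34 of 35 lay above the median tested protein-coding gene, the exception being Bysl. The order of levels by Th0 mean ran from Npm1 (2750 FPKM) to Nop56 (237), Nop58 (215) and Dkc1 (209) at the top. Nop58 and Dkc1 lay closer to each other than the spread of Nop58 (SD 15.03 FPKM, n = 2). At the bottom stood Bysl (10.8), Rrp12 (17.5) and Polr1a (18.8), the last 2 closer to each other than the spread of Rrp12 (SD 2.10 FPKM, n = 2).

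**Figure D1:**
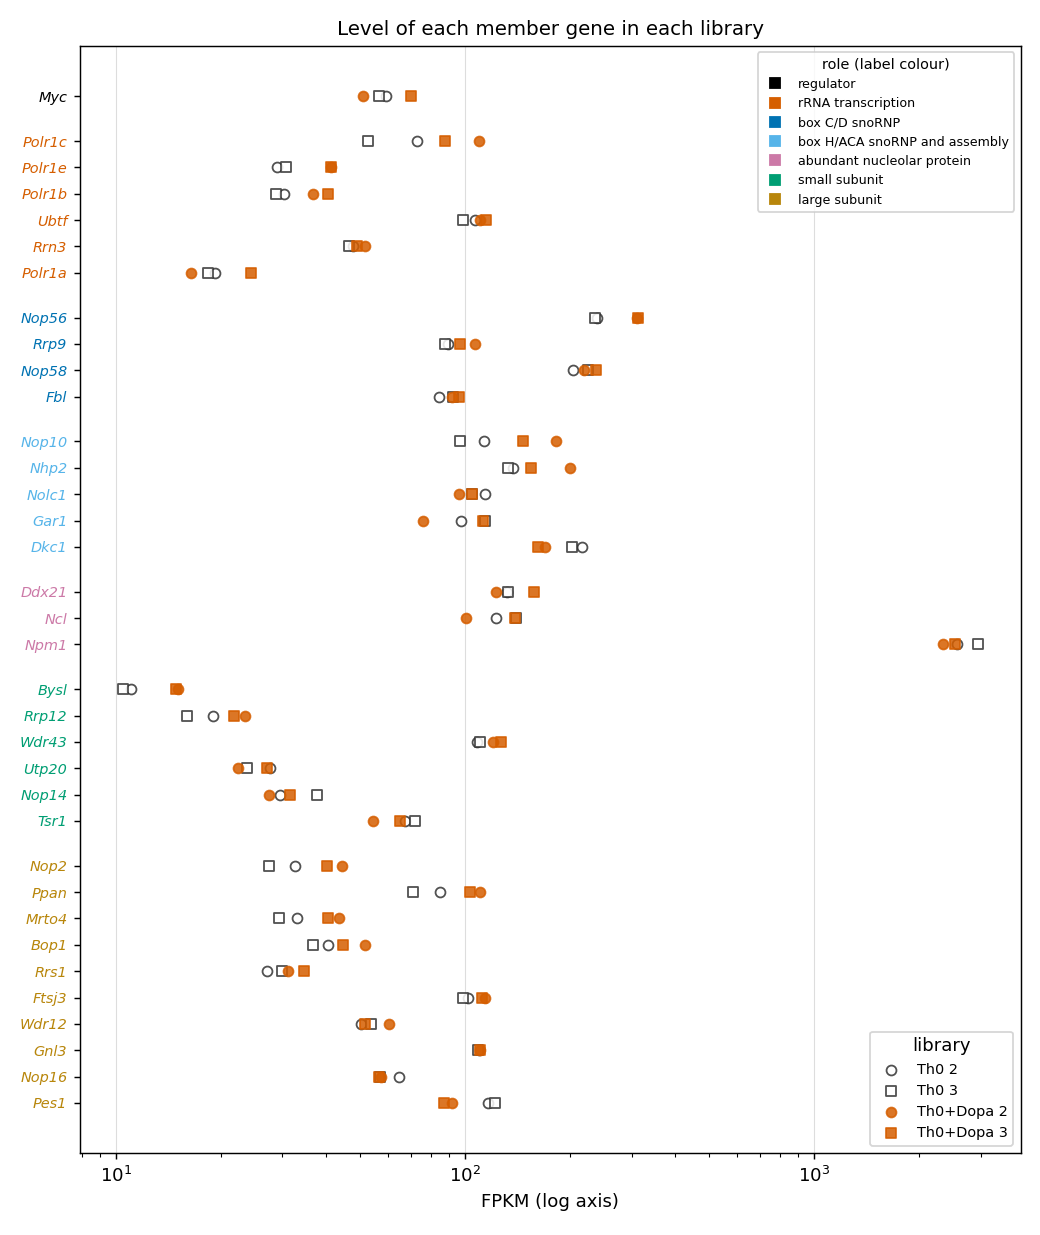
FPKM (log axis) of the 35 members in each of the 4 libraries, grouped by role. Open symbols are Th0 and filled symbols Th0+Dopa, circles the libraries numbered 2 and squares those numbered 3. Both filled symbols of Nop10 and Polr1c lie to the right of both open ones, those of Pes1 and Dkc1 to the left, and those of Myc on either side.

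Myc, the regulator of the group (ENSMUSG00000022346, chromosome 15, 61985391 to 61990374, GRCm38), had 59.5 (library 2) and 56.7 FPKM (library 3) in Th0, and 50.9 and 70.0 FPKM with dopamine, the order of libraries kept throughout. The dopamine libraries lie on opposite sides of the Th0 libraries, and the groups overlap. Within the tables the log2 difference was -0.22 and 0.30, and the estimate was 0.04 ± 0.15 (95% interval -0.34 to 0.42, limma adjusted p = 0.903). This interval holds no difference as well as changes of the size seen for several nucleolar genes below. The sign of the estimate turned with libraries scaled to a common sum (-0.21).

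The enzyme that transcribes the ribosomal DNA, RNA polymerase I, and its factors contributed 6 members. By limma 1 of them rose (16.7%, against 6.28% of all tested genes) and 0 fell (against 4.39%). Polr1c, a subunit shared by RNA polymerases I and III (ENSMUSG00000067148, chromosome 17, 46243920 to 46248054, GRCm38), had 72.7 and 52.8 FPKM in Th0 and 109.6 and 87.8 with dopamine. The groups did not overlap, although the libraries numbered 3 were lower in both groups. The difference was 0.65 ± 0.11, or 1.57-fold (limma adjusted p = 0.0214). Polr1c did not pass without the table as a block (adjusted p = 0.130, limma), nor on the common sum (0.40, adjusted p = 0.109) or after a correction for GC content and length (0.51 ± 0.11, adjusted p = 0.0521). Leaving out a library, without the block and with the libraries rescaled, gave limma differences of 0.39 to 0.86.

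The 2 largest subunits, which form the active site, did not pass. Polr1a had 19.2 and 18.4 FPKM in Th0 and 16.4 and 24.4 with dopamine, overlapping, with a difference of 0.09 ± 0.18 (95% interval -0.37 to 0.54). Polr1b had 30.4 and 28.7 against 36.8 and 40.5 FPKM, without overlap, and 0.38 ± 0.12 (limma adjusted p = 0.121). Polr1e, a subunit that helps the polymerase start and elongate, had 28.9 and 30.7 FPKM in Th0 and 41.2 and 41.4 with dopamine (0.46 ± 0.12, limma adjusted p = 0.0654). The initiation factors differed less. Ubtf, which coats the ribosomal DNA, had 107 and 98.3 against 110.5 and 115 FPKM (0.13 ± 0.11, limma adjusted p = 0.477). Rrn3, which brings the polymerase to the promoter, had 47.7 and 46.5 against 51.6 and 49.0 FPKM (0.09 ± 0.11, limma adjusted p = 0.633).

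Of 13 other genes listed for nucleolar transcription, 1 rose (7.69%, against 6.28% of all tested genes) and 0 fell (against 4.39%) by limma. At an unadjusted limma p under 0.05 there were 3 higher and 1 lower, and the median was 0.16. The gene called was Nop53, better known for late large-subunit assembly, with 172 and 156.5 FPKM in Th0 and 286 and 245 with dopamine (0.69 ± 0.10, limma adjusted p = 0.0153). Polr1d, the partner of Polr1c in both polymerases, had 81.7 and 82.9 against 105 and 97.6 FPKM and did not pass (0.30 ± 0.11, limma adjusted p = 0.140).

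Box C/D snoRNPs, which place methyl groups on ribosomal RNA, have Fbl as the methyltransferase and Nop56 and Nop58 as the scaffold. All 4 members of this role were higher with dopamine in both tables, as were 37.6% of all tested genes, but none passed the test. On the common sum Nop58 (-0.17), Fbl (-0.16) and Rrp9 (-0.05) turned negative, and Nop56 stayed above 0 (0.14). Nop56 had 239 and 235 FPKM in Th0 and 311 and 312 with dopamine, so the libraries of each group lay close together and the groups apart. Its difference was 0.39 ± 0.10, or 1.31-fold (limma adjusted p = 0.0655). It passed after the GC and length correction (0.41 ± 0.08, limma adjusted p = 0.0441) and with only protein-coding genes tested (adjusted p = 0.0230, limma).

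The partner of Nop56 differed less. Nop58 had 204 and 225 FPKM in Th0 against 220 and 237 with dopamine, overlapping (0.09 ± 0.10, 95% interval -0.16 to 0.34). Fbl had 84.4 and 92.5 against 91.7 and 96.4 FPKM, also overlapping (0.09 ± 0.10, 95% interval -0.17 to 0.34). Rrp9, which binds the snoRNA that guides the first cuts of the small-subunit precursor, had 89.5 and 87.5 against 107 and 97.0 FPKM (0.20 ± 0.10, limma adjusted p = 0.272).

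Box H/ACA snoRNPs convert uridine to pseudouridine in ribosomal RNA, with Dkc1 as the enzyme and Nop10, Nhp2 and Gar1 as the other core proteins. Of these only Nop10 was called. Nop10, the smallest of them (ENSMUSG00000027133, chromosome 2, 112261926 to 112263269, GRCm38), had 114 and 96.9 FPKM in Th0 and 182 and 146 with dopamine. The groups did not overlap, and the difference was 0.63 ± 0.10, or 1.55-fold (limma adjusted p = 0.0206). Without the table as a block its limma adjusted p was 0.0911, and on the common sum 0.0758 (0.38). After the GC and length correction it passed (0.70 ± 0.09, limma adjusted p = 0.0125). Leaving out a library, without the block and with the libraries rescaled, gave limma differences of 0.44 to 0.77.

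Dkc1 had 216 and 202 FPKM in Th0 and 170 and 162 with dopamine, lower without overlap. Its difference of -0.33 ± 0.10 did not pass (limma adjusted p = 0.0960), but it did on the common sum (-0.59, adjusted p = 0.0201, limma). The ratio of Nop10 to Dkc1, which no scaling of a library changes, was 0.526 and 0.479 in Th0 and 1.07 and 0.905 with dopamine. This ratio was chosen after the values were seen and carries no test. Nhp2 had 138 and 133 against 200 and 154 FPKM (0.37 ± 0.12, limma adjusted p = 0.115). Gar1 overlapped between the groups, with 97.1 and 114 against 75.9 and 113 FPKM (-0.18 ± 0.12, limma adjusted p = 0.389). Nolc1, a chaperone that carries snoRNPs between nucleolus and Cajal bodies, had 113.8 and 104.8 against 96.23 and 104.7 FPKM, so the groups nearly touched (-0.12 ± 0.11, limma adjusted p = 0.537).

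Among 14 further snoRNP assembly genes 2 rose (14.3%, against 6.28% of all tested genes) and 0 fell (against 4.39%) by limma. At an unadjusted limma p under 0.05 there were 5 higher and 0 lower, and the median was 0.29. Ruvbl2, an ATPase of the chaperone that builds snoRNPs, had 34.4 and 34.3 FPKM in Th0 and 58.9 and 50.8 with dopamine (0.66 ± 0.12, limma adjusted p = 0.0289). Trmt112, an activator of RNA and protein methyltransferases, had 18.4 and 18.04 against 35.9 and 27.0 FPKM (0.74 ± 0.15, limma adjusted p = 0.0363).

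**Figure D2:**
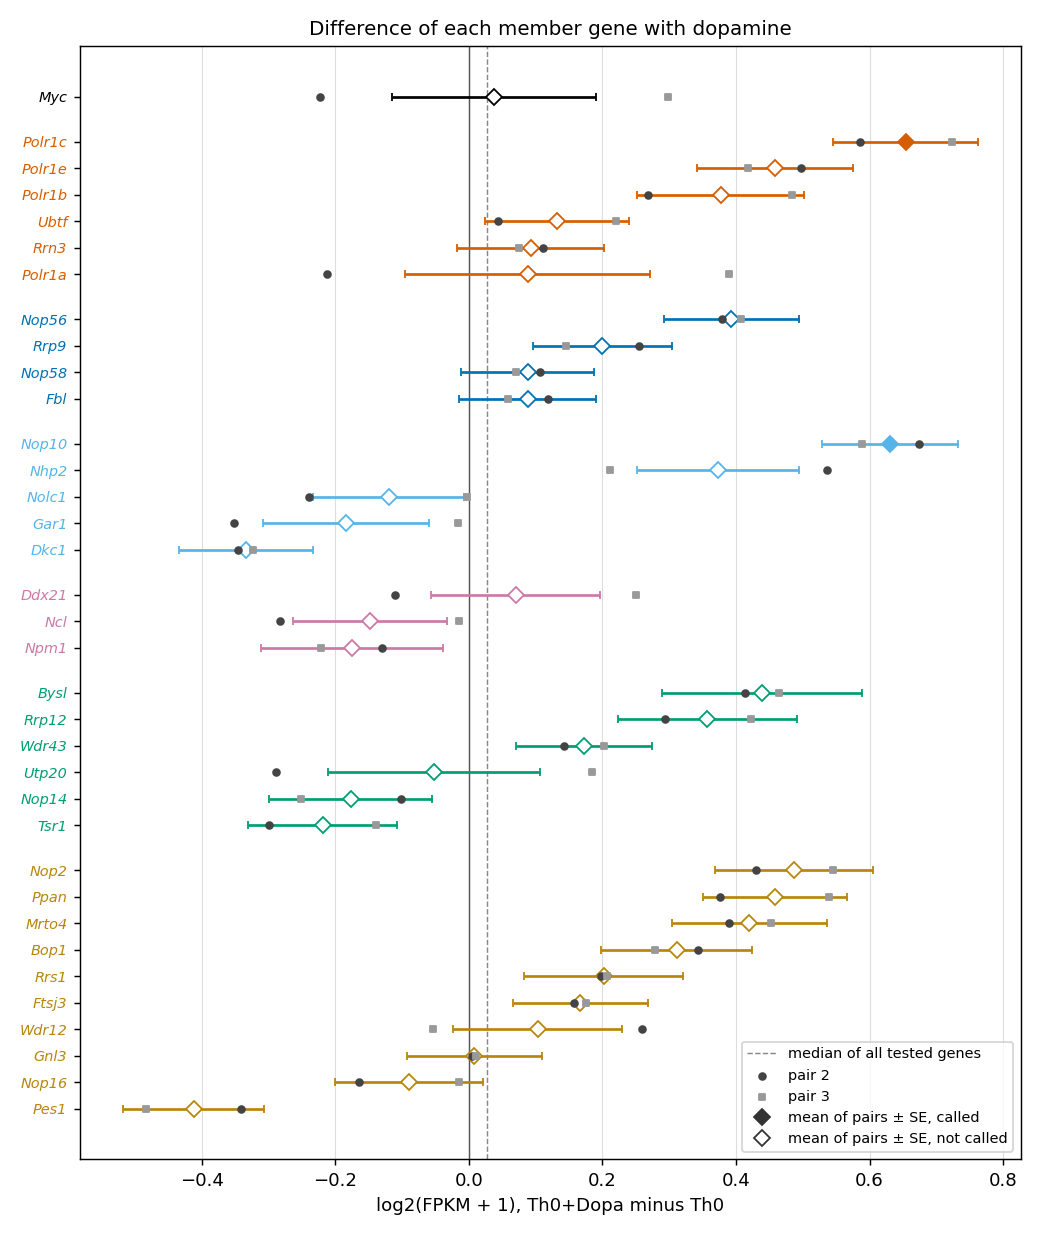
Difference of each member on the log2(FPKM + 1) scale, Th0+Dopa minus Th0: diamonds with bars are the mean of the 2 within-table differences ± SE, filled where limma called them, and small symbols are the pair of libraries numbered 2 (circles) and 3 (squares). Nop10 (0.63) and Polr1c (0.65) are the filled diamonds, Pes1 (-0.41) is the lowest, and the pairs of Myc fall on either side of 0.

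The abundant nucleolar proteins did not pass. Npm1, a nucleolar chaperone that holds the granular outer layer together, was the most abundant member, with 2561 and 2939 FPKM in Th0 and 2340 and 2522 with dopamine. Both dopamine libraries were below both Th0 libraries, but the difference, -0.18 ± 0.14 (limma adjusted p = 0.455), was about as large as its error. It had -0.43 on the common sum and 0.21 after the GC and length correction. Npm1 has processed pseudogene copies in the genome, so its value is uncertain where reads could be shared.

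Nucleolin itself was no more distinct. Ncl, which binds nascent ribosomal RNA, had 123 and 140 FPKM in Th0 and 101 and 139 with dopamine, overlapping (-0.15 ± 0.12, 95% interval -0.43 to 0.14). Ddx21, a helicase that senses transcription by RNA polymerases I and II, had 132 FPKM in both Th0 libraries and 122 and 158 with dopamine, on either side (0.07 ± 0.13, limma adjusted p = 0.762).

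None of the 6 small-subunit factors was called. Of these, 3 were higher with dopamine in both tables (50%, against 37.6% of all tested genes) and 2 were lower in both (33.3%, against 32.3%). Bysl, needed for late small-subunit maturation, had 11.03 and 10.5 FPKM in Th0 and 15.0 and 14.8 with dopamine (0.44 ± 0.15, limma adjusted p = 0.126). Its gene overlaps Ccnd3 on the other strand. Rrp12, an export factor, had 19.0 and 16.0 against 23.5 and 21.8 FPKM (0.36 ± 0.13, limma adjusted p = 0.154). For Wdr43, Utp20, Nop14 and Tsr1 the differences ranged from -0.22 (Tsr1) to 0.17 (Wdr43). Of 49 tested other genes of the small-subunit list, 3 rose (6.12%, against 6.28% of all tested genes) and 0 fell (against 4.39%) by limma. At an unadjusted limma p under 0.05 there were 8 higher and 2 lower, and the median was 0.20. The genes called were Tbl3 (0.78 ± 0.12), Imp3 (0.76 ± 0.12) and Emg1 (0.52 ± 0.10), with limma adjusted p of 0.0168, 0.0183 and 0.0348. Tbl3 and Imp3 are parts of the processome that folds the precursor, and Emg1 is a methyltransferase. Tbl3 had 30.7 and 25.1 FPKM in Th0 against 50.8 and 45.7 with dopamine.

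In the large subunit, Pes1, Bop1 and Wdr12 form one complex that processes the precursor of the large-subunit RNA. None of the 3 was called. Pes1 had 117 and 122 FPKM in Th0 and 91.9 and 87.1 with dopamine, without overlap, the lowest difference of all members (-0.41 ± 0.11, limma adjusted p = 0.0657). On the common sum it was called lower (-0.67, adjusted p = 0.0152, limma). Bop1 had 40.4 and 36.7 against 51.6 and 44.8 FPKM, again without overlap but upward (0.31 ± 0.11, limma adjusted p = 0.144). Its difference was 0.061 on the common sum (limma adjusted p = 0.803). After the GC and length correction it was 0.048 (limma adjusted p = 0.823), where Pes1 had -0.351. Wdr12 had 50.4 and 53.8 against 60.5 and 51.7 FPKM, overlapping (0.10 ± 0.13, limma adjusted p = 0.646). The ratio of Bop1 to Pes1, also chosen after its values were seen, was 0.347 and 0.301 in Th0 and 0.561 and 0.514 with dopamine.

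The other large-subunit members were mostly higher without being called. Nop2, a methyltransferase of the large-subunit RNA, had 32.7 and 27.4 FPKM in Th0 and 44.3 and 40.4 with dopamine (0.49 ± 0.12, limma adjusted p = 0.0568). Ppan, an early assembly factor, had 84.6 and 71.0 against 110 and 104 FPKM (0.46 ± 0.11, limma adjusted p = 0.0540). Both groups were separate in these genes, and with a pseudocount of 0.1 both were called (limma adjusted p = 0.0450 and 0.0419). After the GC and length correction they had 0.356 and 0.166 (limma adjusted p = 0.118 and 0.381). On the common sum they had 0.239 and 0.205 (limma adjusted p = 0.349 and 0.358). Mrto4, which holds the place of the stalk protein P0, had 33.1 and 29.4 against 43.7 and 40.6 FPKM (0.42 ± 0.12, limma adjusted p = 0.0790). Rrs1, Ftsj3, Gnl3 and Nop16 ranged from -0.09 (Nop16) to 0.20 (Rrs1). Gnl3, the GTPase also called nucleostemin, stayed between 109 and 110 FPKM in all 4 libraries, with a difference of 0.01 ± 0.10 (95% interval -0.24 to 0.26).

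Of 58 further large-subunit genes 4 rose (6.90%, against 6.28% of all tested genes) and 0 fell (against 4.39%) by limma. At an unadjusted limma p under 0.05 there were 12 higher and 1 lower, and the median was 0.09. Npm3, a relative of Npm1, had 95.5 and 84.2 FPKM in Th0 and 169 and 153 with dopamine (0.83 ± 0.10, limma adjusted p = 0.00873). The helicase gene Ddx54 and the pre-ribosome genes Wdr74 and Wdr18 rose by 0.70, 0.54 and 0.58. Of 19 tested exosome and export genes 3 rose (15.8%, against 6.28% of all tested genes) and 0 fell (against 4.39%) by limma. At an unadjusted limma p under 0.05 there were 5 higher and 0 lower, and the median was 0.04. Ran, the GTPase that drives nuclear export of ribosomal subunits and much other cargo, had 256 and 242 against 706 and 523 FPKM (1.29 ± 0.13, limma adjusted p = 0.00475). Exosc5 and Exosc4, subunits of the RNA exosome that trims precursor ends, rose by 1.02 and 0.92.

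Over all 5 lists of other pathway genes, 13 of 153 tested rose (8.5%, against 6.28% of all tested genes) and 0 fell (against 4.39%) by limma. At an unadjusted limma p under 0.05 there were 33 higher (21.6%, against 15.7% of all tested genes) and 4 lower (2.61%, against 12.2%). By list, the share higher ran from 16.3% (small subunit) to 35.7% (snoRNP). The share lower ran from 0% (snoRNP, and exosome and export) to 7.69% (nucleolar transcription). The median difference of the 153 was 0.16, and their median Th0 level was 41.5 FPKM, against 12.0 over all tested genes. In 89 of them both tables gave a higher value with dopamine (58.2%, against 37.6%), and in 24 a lower one (15.7%, against 32.3%). On the common sum 5 of the 153 were called higher and 5 lower, against 3.29% and 9.31% of all tested genes. No set test was made, the lists were chosen with earlier results of these data known, and the shares describe these libraries only.

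**Figure D3:**
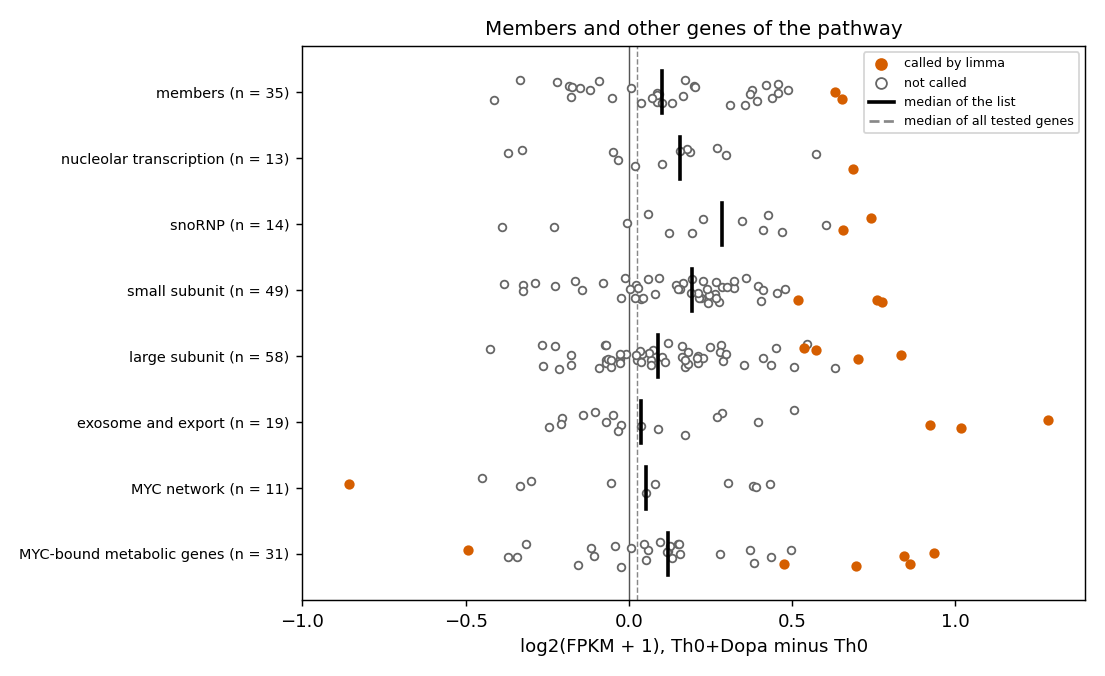
Differences on the log2(FPKM + 1) scale for the members and for 7 lists of other genes, 1 point a gene, filled where called by limma, with a bar at the list's median and a dashed line at the median of all tested genes (0.03). The list medians lie between 0.04 and 0.29, and Ran (1.29) and Myb (-0.86) are the outermost points.

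Myc works with partner proteins, and none of their genes passed the test. MAX is the dimer partner of MYC, while MGA, MXI1 and the MXD proteins compete with MYC for the same sites. Of 14 genes listed for this network, 11 were tested. By limma 0 rose (against 6.28% of all tested genes) and 1 fell (9.09%, against 4.39%). At an unadjusted limma p under 0.05, 3 were higher and 3 lower (27.3% each, against 15.7% and 12.2%). The gene that fell was Myb, a transcription factor of dividing blood cells placed in the list as a kindred regulator, with 14.8 and 19.8 FPKM in Th0 and 8.19 and 9.90 with dopamine (-0.86 ± 0.15, limma adjusted p = 0.0272). Max had 26.9 and 27.8 against 19.9 and 24.4 FPKM (-0.30 ± 0.13, limma adjusted p = 0.214) and Mxi1 9.34 and 9.92 against 6.66 and 6.91 FPKM (-0.45 ± 0.17, limma adjusted p = 0.160). Mxd3 and Mlx had 0.38 and 0.30. Mycn and Mycl, the paralogs of Myc, did not reach the filter, with at most 1.03 and 0.364 FPKM.

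Other genes often listed as MYC-bound, most of them metabolic, numbered 31. Of these 5 rose (16.1%, against 6.28%) and 1 fell (3.23%, against 4.39%) by limma, with a median of 0.12. Nme2 and Nme1, nucleoside diphosphate kinases, rose by 0.94 and 0.70, and Shmt2, the mitochondrial serine hydroxymethyltransferase, by 0.86. The amino acid transporter gene Slc7a5 had 15.6 and 13.99 FPKM in Th0 and 23.4 and 31.8 with dopamine (0.85 ± 0.18, limma adjusted p = 0.0412). Tfrc, the transferrin receptor, fell (-0.49 ± 0.11, limma adjusted p = 0.0437).

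Promoter windows from RefSeq (GRCm38.p6), from 250 bases before to 50 bases after each gene's start, were found for 29 of the 35 members, in 36 windows. They are shown for the 2 members called, Nop10 and Polr1c, and for Nop2 and Pes1, a pair that carry the same canonical E-box and lay at opposite ends of the large-subunit members. Each is written 5′ to 3′ on the strand of the gene, and capitals mark CACGTG, the canonical E-box bound by MYC and MAX, and the non-canonical form CACGCG or its reverse complement CGCGTG. The windows are chr2:112261676-112261975 (plus strand) for Nop10, chr17:46247996-46248295 (minus strand) for Polr1c, chr6:125131633-125131932 (plus strand) for Nop2 and chr11:3963725-3964024 (plus strand) for Pes1.
Nop10: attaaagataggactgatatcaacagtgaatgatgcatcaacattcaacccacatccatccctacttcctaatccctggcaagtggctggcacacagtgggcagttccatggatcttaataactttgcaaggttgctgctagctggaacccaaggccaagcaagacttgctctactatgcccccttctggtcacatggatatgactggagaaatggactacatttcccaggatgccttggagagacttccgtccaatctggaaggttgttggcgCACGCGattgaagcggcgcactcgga
Polr1c: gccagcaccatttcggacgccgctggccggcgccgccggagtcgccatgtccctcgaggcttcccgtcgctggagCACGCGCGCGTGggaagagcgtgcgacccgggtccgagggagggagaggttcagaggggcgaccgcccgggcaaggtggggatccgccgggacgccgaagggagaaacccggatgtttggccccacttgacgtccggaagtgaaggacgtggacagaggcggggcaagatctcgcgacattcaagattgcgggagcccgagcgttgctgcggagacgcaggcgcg
Nop2: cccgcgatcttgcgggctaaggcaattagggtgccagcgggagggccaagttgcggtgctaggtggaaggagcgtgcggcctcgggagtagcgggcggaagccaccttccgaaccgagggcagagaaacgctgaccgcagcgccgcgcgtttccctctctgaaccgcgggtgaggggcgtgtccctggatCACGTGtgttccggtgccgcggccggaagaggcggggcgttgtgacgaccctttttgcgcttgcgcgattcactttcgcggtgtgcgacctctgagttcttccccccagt
Pes1: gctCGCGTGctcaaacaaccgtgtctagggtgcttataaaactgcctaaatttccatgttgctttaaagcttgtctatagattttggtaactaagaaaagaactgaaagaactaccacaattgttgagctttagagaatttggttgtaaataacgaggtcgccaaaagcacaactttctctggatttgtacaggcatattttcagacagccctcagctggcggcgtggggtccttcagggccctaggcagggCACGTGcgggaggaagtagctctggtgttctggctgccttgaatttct

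CACGTG begins 60 bases before the start of Nop2 and at the transcribed base 3 of Pes1. CACGCG begins at transcribed base 25 of Nop10, while in Polr1c a CACGCG begins 175 bases before the start and a CGCGTG follows at 169 bases. Of the 36 member windows, 6 held CACGTG (16.7%), those of Nop2, Pes1, Rrn3, Tsr1, Utp20 and Wdr43, against 7.15% of all 32851 windows and 10.3% of 10575 windows of tested genes. CACGCG on either strand stood in 12 (33.3%), against 9.27% and 17.7%. For comparison, the GC box GGGCGG was in 25 (69.4%, against 35.7% and 63.3%) and TATAAA in 3 (8.33%, against 13.6% and 6.90%), each on either strand. The genes with CACGTG did not share a direction: Nop2 had 0.49, Wdr43 0.17, Rrn3 0.09, Utp20 -0.05, Tsr1 -0.22 and Pes1 -0.41. A match is a description of letters, not a bound site.

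Member differences went with base composition. Across the 35 genes, which share the same 4 libraries and are not replicates, the difference and mean transcript GC content had a Pearson's r of 0.42 and a Spearman's rho of 0.43. The rho was 0.36 in the pair numbered 2 and 0.47 in the pair numbered 3. Over 10148 tested protein-coding genes the same relation had r = 0.34 and rho = 0.38. Of the 17 members with higher GC content (51.2% to 59.1%), 14 lay above 0, with a median of 0.31, and of the 18 with lower GC content (40.1% to 51.2%), 11 did, with a median of 0.08. Transcript length showed no such relation (rho = -0.04), and the Th0 level a negative one (rho = -0.36). After the GC and length correction the members' median was 0.16 beside 0.03 for all genes, and 2 members were called higher, Nop10 and Nop56. The part of library preparation in this relation was not tested.

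**Figure D4:**
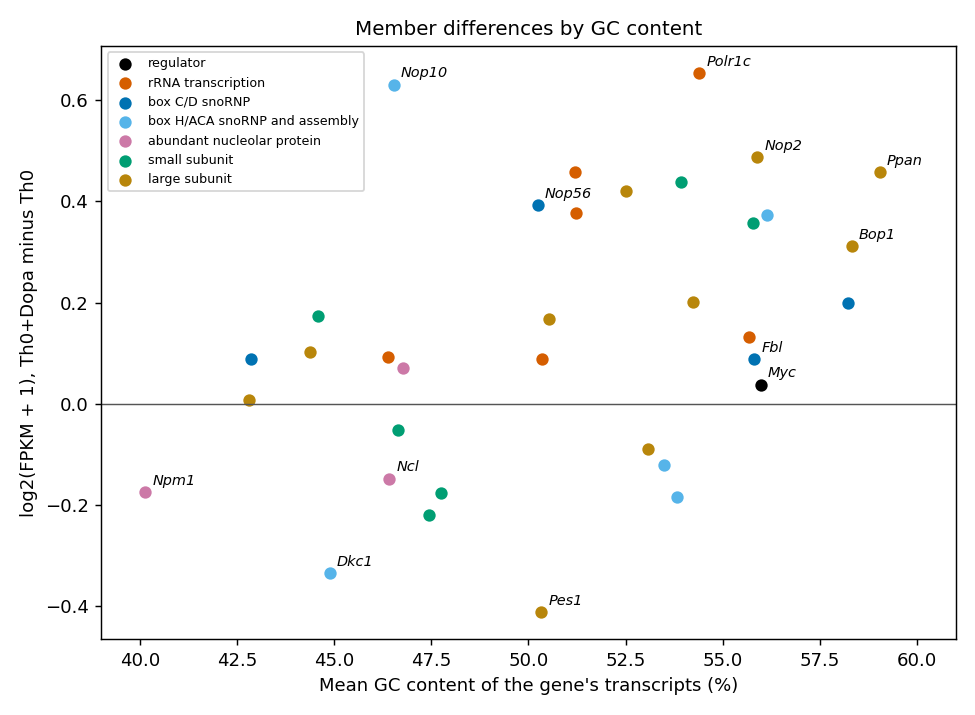
Difference of each member (log2(FPKM + 1), Th0+Dopa minus Th0) against the mean GC content of its transcripts, coloured by role. Npm1 and Dkc1 lie at low GC and below 0, Ppan and Bop1 at high GC and above 0, and Nop10 lies high at 46.5% GC.

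Several members hold other genes within their bounds. In 8 of them, Nop56, Nop58, Dkc1, Ncl, Gnl3, Wdr43, Ppan and Tsr1, introns or exons carry 23 annotated snoRNA genes that the tables list. Of these, 21 were listed at 0 in all 4 libraries, which for such short genes can be a failed estimate. The others were Snora75 in Ncl, listed above 0 only in Th0+Dopa 3 (11.5 FPKM), and Gm24451 in Nop56, at 26.9 FPKM in Th0+Dopa 2 and 23.9 in Th0 3 and at 0 in the other libraries. The data therefore show no usable level of the snoRNAs beside those of their hosts. Genes of 11 members overlap a protein-coding gene on the other strand, among them Nop56, Dkc1, Nhp2, Bop1, Bysl, Gnl3 and Pes1. Whether strand was used in counting is not given, so these values are uncertain to that extent. Nop10 and Polr1c are among 18 members that overlap no other annotated gene.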

How the data were processed

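RNA-seq values for 4 libraries were used as deposited, in FPKM. They came in 2 tables, one with the libraries numbered 2 and one with those numbered 3. The tables may have been normalized separately. Per the submitters' processing notes, the tools were STAR 2.4.2 with the mm10 build, Cufflinks 2.2.1, Trimmomatic 0.35, bcl2fastq 1.8.4 and FastQC 0.10.1; the sources used here do not give the annotation, normalization options or use of strand. Per the labels' protocols, the kit was stranded and depleted ribosomal RNA.

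GENCODE M21 (GRCm38) named 36423 of 38282 gene IDs. limma 3.58.1 (lmFit, eBayes with trend; R 4.3.3) was fitted to log2(FPKM + 1) for the 11423 genes whose FPKM averaged 1 or more, with the table as a block, two-sided, with Benjamini-Hochberg adjustment over all of them; genes under 0.05 after adjustment were called. The fit has 1 residual and 4.70 prior degrees of freedom, and was tested on simulated data. A log2(FPKM + 1) difference understates changes of low genes. The labels do not tie libraries to separate animals or cultures. The p-values then reflect just how far these samples spread, which may be technical. The GC and length correction removed a loess fit (span 0.3) from each table's differences.

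The members and gene lists were chosen with earlier results of these data known. Values in each library are given for every called member, for Myc and for members that define a role, and from each other list up to 4 calls in each direction with the lowest adjusted p are named. Which of those, and which other members, have library values printed was chosen after their values were seen. Of the other pathway genes listed, Riok2 and Exosc6 were not analysed here. Alternatives are given in the closing section.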

Additional observations from a re-analysis of the deposited data

How the results depend on the processing

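Bysl, the member lowest in FPKM, rested on at least 198 estimated fragments a library, though shorter members may rest on fewer. The 2 libraries a group leave 1 residual degree of freedom, and intervals of uncalled members reach from -0.67 to 0.81. Against 2 members called higher as reported, there were 4 with a pseudocount of 0.1 or a mean of at least 5 FPKM, 8 with protein-coding genes only, and 0 with the common sum, without limma's trend (lowest member adjusted p = 0.121) or with no replicate block (0.0911). Limma fits that left out a library were also made without a block and with libraries scaled by the median of ratios. Their differences therefore mix these changes. A lone library was assumed there to vary like the others, so calls are not counted for those fits. Against 0 called lower, there were 3 on the common sum with or without small RNA, and 2 with protein-coding genes only. Other pathway genes called higher numbered 13 as reported, 5 on the common sum, 22 with protein-coding genes only, 0 without trend and 3 without the block. Those called lower numbered 5 on the common sum, 7 with small RNA left out first, 2 with protein-coding genes only and 1 after the GC and length correction. The members' median was -0.15 on the common sum, or -0.041 if small RNA was dropped beforehand. As a replicate block the fit used the table; the deviations of same-numbered libraries correlated at 0.087 over all tested genes, 0.135 over tested protein-coding genes and 0.484 over the members, and the labels do not say that a number marks a shared animal.

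Signs that turned belonged to members that limma did not call as reported. On the common sum these were Myc (-0.21), Nop58 (-0.17), Fbl (-0.16), Polr1a (-0.15), Ubtf (-0.12), Rrn3 (-0.16), Rrp9 (-0.052), Rrs1 (-0.045), Wdr12 (-0.15), Wdr43 (-0.080), Ftsj3 (-0.086), Ddx21 (-0.18) and Gnl3 (-0.24). With small RNA left out first they were Myc (-0.11), Nop58 (-0.058), Fbl (-0.057), Polr1a (-0.052), Ubtf (-0.013), Rrn3 (-0.051), Wdr12 (-0.041), Ddx21 (-0.075) and Gnl3 (-0.14). With the median of ratios Gnl3 had -0.019. After the GC and length correction Myc had -0.092, Fbl -0.058, Rrp9 -0.13, Npm1 0.21 and Utp20 0.036; the cause was not tested. The fits with a library left out also used the median of ratios and no block. In them Myc ranged from -0.20 to 0.23, Gar1 from -0.48 to 0.062, Ncl from -0.39 to 0.044 and Polr1a from -0.20 to 0.32. Wdr12 ranged from -0.045 to 0.20, Utp20 from -0.20 to 0.044, Ddx21 from -0.13 to 0.21 and Gnl3 from -0.031 to -0.006.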
